A study of Mus musculus with 4 samples.

Results

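The Notch genes described here are 10 genes taken by name: the receptors Notch1, Notch2 and Notch3, the ligands Jag1, Jag2 and Dll1, the DNA-binding partner Rbpj, and the targets Hes1, Hey1 and Nrarp. Their spots were found by the gene name of each non-control spot, not by measured values. The list of genes itself was chosen with earlier results of these data known. All 10 were found among 31829 gene names on the array, as 22 spots of 13 different probes. RNA came from skin epithelial cells of adult C3H/HeN mice, grown as primary cells and sorted for the surface proteins CD49f and CD34, which together mark bulge stem cells in the hair follicle. The 0p cells are those of the initial sort. The 15p cells are those that sorting recovered at the end of culture 15, each culture lasting 10 days in Wnt-3a on 60-mm dishes coated with collagen. Wnt-3a is listed as treatment for 15p and 0p cells alike, so the groups compared share it, and the labels do not say whether the 0p cells were cultured with it. Each of 4 arrays took a 15p and a 0p RNA in different dyes. There were 2 biological replicates, and each was run on an array with 15p RNA in Cy5 (its Cy5 array) and on a dye swap with 15p RNA in Cy3 (its Cy3 array). Whether replicates are separate animals, pools or cultures is not in the labels, so p-values measure only the spread between these samples, which may be technical.

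Notch signalling passes between touching cells. A ligand of the Jagged or Delta-like family on one cell binds a Notch receptor on its neighbour, the receptor is cut by ADAM proteases and then by gamma-secretase, and its freed intracellular domain enters the nucleus, where it binds the protein encoded by Rbpj and turns on genes of the hairy-related family such as Hes1 and Hey1. In epidermis the pathway is known for driving basal keratinocytes out of the stem cell layer into the spinous layer, and in the hair follicle for fate choice among bulge descendants.

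Each probe is a 60-base oligonucleotide, and Notch1, Notch2 and Rbpj had a pair of different probes. The first 30 bases of these probes are shown, because the probes of a gene did not always give the same ratio. They are printed 5′ to 3′ in lower case, with mm9 positions and strands as the files give them.
Notch1, probe A_55_P2171897, chr2:26319470-26319499, minus strand: tcctgcagtggagggggccttgagacaggc
Notch1, probe A_55_P2047168, chr2:26314660-26314689, minus strand: ttgcttctttccaaaatcgaaaagaaagaa
Notch2, probe A_52_P289213, chr3:97953914-97953943, plus strand: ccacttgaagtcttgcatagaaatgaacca
Notch2, probe A_55_P1982793, chr3:97951233-97951262, plus strand: tcttcaccacactctgcatctgactggtca
Rbpj, probe A_66_P139267, chr5:54048503-54048532, plus strand: tttgtagaaaaaggaatctgctcaattcca
Rbpj, probe A_55_P2022524, chr5:54044777-54044806, plus strand: acacaaacagcgaggggaattacacaaatg
The starts of the 2 probes lay 2323 bases apart along the Notch1 transcript, 2681 apart along Notch2 and 3726 apart along Rbpj. For the members with the highest mean ratios, which had 1 probe each, the first 30 bases read as follows.
Hes1, probe A_55_P2046245, chr16:30067820-30067849, plus strand: ttaaaatatcttcctttggggaagtttatt
Notch3, probe A_51_P220162, chr17:32257878-32257907, minus strand: gcctaatagaaatgtttttaggctgttttt
The Hes1 probe held 26.7% G and C, below the 10th percentile (35.0%) of all probes kept for testing, whose median was 43.3%. The probes of the other members held between 35.0% and 55.0%. Whether a probe lies in a coding exon or in an untranslated region was not settled here.

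Between 55.5% and 68.3% of spots were well above background in each dye and array, and no spot was saturated. Of 6 markers of the sorted cells, Itga6, Krt5, Krt14, Krt15 and Trp63 were well above background in both RNAs on all 4 arrays. Krt14 and Krt15, keratins of basal and bulge cells, had log2 ratios of 15p over 0p of 0.19 ± 0.12 and 0.17 ± 0.033 (SD, n = 2), which did not pass (adjusted p = 0.749 each, limma). The other tested markers stayed near 0, with 0.00042 for Krt5, 0.025 for Itga6 and -0.026 for Trp63. On the array of replicate 2 with 15p RNA in Cy5 Krt14 had 0.73, and without that array the ratios were 0.027 for Krt14 and 0.13 for Krt15. The part of such shifts in the results on the members was not tested. Cd34, which encodes one of the sorted proteins, was well above background on no array in 15p RNA and on 1 in 0p RNA. Among markers of other skin cells, 1 of 6 fibroblast, 2 of 5 endothelial, 3 of 5 leukocyte and 2 of 5 melanocyte genes passed the filter on dim probes. The Cy5 array of replicate 2 stood apart, with an SD of log2 ratios over all genes of 0.29 against 0.13 to 0.14 on the other arrays. Values without it, from a fit with a dye term on the other 3 arrays, are given beside some of the ratios it moved. The ratios of 15p over 0p on a dye-swapped pair of arrays ran opposite across genes, which are not independent replicates (Pearson r = -0.55 in replicate 1 and -0.40 in replicate 2). Averaging the pair removes whatever part of the dye bias its 2 arrays have in common.

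All 10 genes were expressed above background: each of the 13 probes was well above background in both RNAs on all 4 arrays. Signal for receptors, ligands, nuclear partner and targets was thus measured before and after serial culture. Of all 39429 probes, 21677 were well above background on all 4 arrays in at least 1 of the RNAs, a looser rule. Raw signals of the probes that stand for the genes were 3.22 to 212 times the median of the negative control spots, lowest for Hey1 and highest for Jag1. Signals of different probes do not order the genes by abundance. The second probe of Notch2 was close to background (1.30 to 2.47 times the negative controls), as were those of Notch1 (1.87 to 4.23) and Rbpj (1.90 to 4.79).

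**Figure D1:**
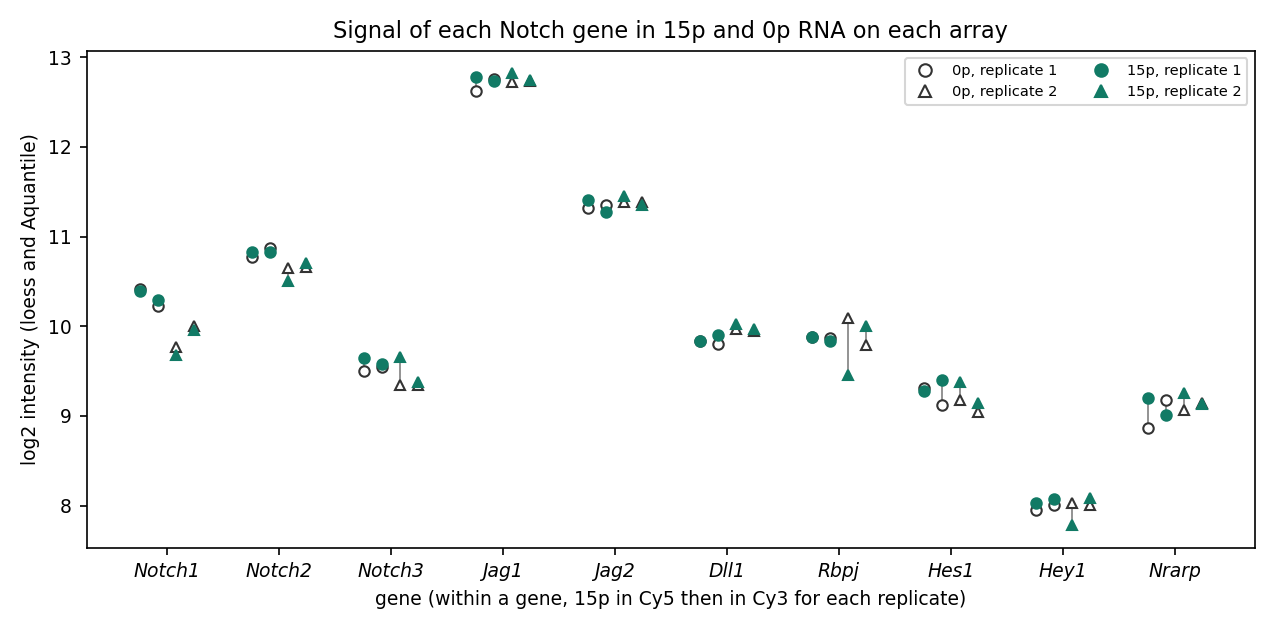
Normalised log2 intensity (y axis) of the probe that stands for each gene (x axis) in 0p RNA (open) and 15p RNA (filled), for replicate 1 (circles) and replicate 2 (triangles), with a line joining the RNAs of an array. The RNAs lie close together on most arrays, apart from Rbpj on the Cy5 array of replicate 2 (9.45 in 15p, 10.09 in 0p), and heights are not comparable between genes.

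No member passed the test for a difference between 15p and 0p cells. Of 10 tested members 0 were higher and 0 lower, as for all 17376 tested genes (0% higher and 0% lower; limma, Benjamini-Hochberg adjusted p under 0.05 over all genes; adjusted p of the members 0.749 to 0.995). At an unadjusted p under 0.05 there were 2 members, Hes1 and Notch3, both with higher signal in 15p cells, and 0 with lower signal. Of all tested genes 6.31% had such a p in either direction, 2.92% with higher and 3.38% with lower signal in 15p cells. The unadjusted p of Hes1 and Notch3 (limma) was 0.031 and 0.038 here. From the processed signals of the scanner files it was 0.054 and 0.053. With each array centred on its median in place of loess it was 0.024 and 0.028. A dye term on the 4 arrays gave 0.0769 and 0.0515 with no block (limma). Adding the replicate as a block gave 0.125 and 0.133 (limma). With the replicate as a block and a dye term, 0 members passed (adjusted p = 1 for each), while the whole table then gave 7 genes higher and 53 lower. The block was a fixed term, which takes the spread between the replicates out of the error. The p-values of that fit thus measure what is left between arrays, not the spread between biological replicates. Mean log2 ratios of the members ran from -0.11 for Rbpj to 0.14 for Hes1, with a median of 0.027 beside 0.0025 over all tested genes. Without the Cy5 array of replicate 2 the members' median was 0.060. The farthest 95% limit of any member was a 1.19-fold difference, from a spread estimated over 2 replicates. In bulk RNA, fewer cells that express a gene and less of its RNA per cell cannot be told apart.

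**Figure D2:**
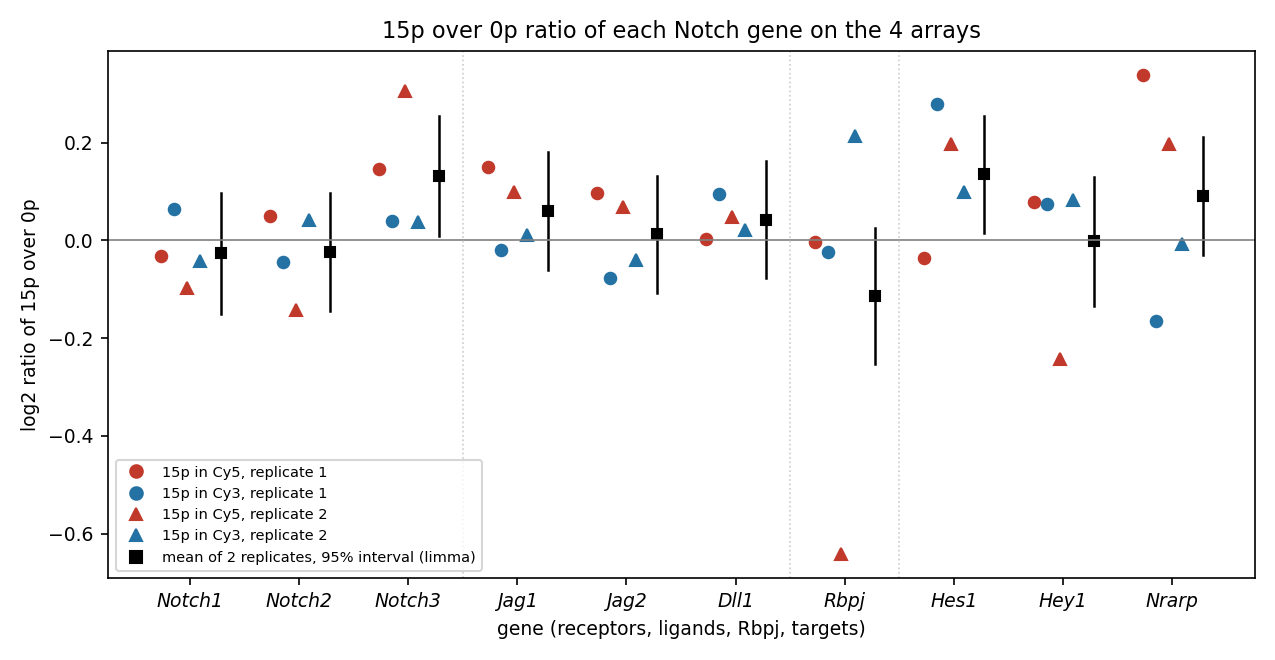
Log2 ratio of 15p over 0p (y axis) of each gene (x axis, grouped as receptors, ligands, Rbpj and targets) on each array, coloured by the dye that held 15p RNA and shaped by replicate, with the mean over 2 replicates and its 95% interval in black. All means lie between -0.11 and 0.14, and the largest single ratios in size are those of Rbpj (-0.64) and Notch3 (0.31) on the Cy5 array of replicate 2 and of Nrarp (0.34) on the Cy5 array of replicate 1.

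Among the receptors, Notch3 had the highest ratio. In 15p RNA its log2 intensity was 9.64 and 9.58 on the Cy5 and Cy3 arrays of replicate 1, and 9.65 and 9.38 on those of replicate 2. In 0p RNA of the same arrays it was 9.50, 9.54, 9.35 and 9.34. The 15p signal was the higher on every array, although the ranges of the RNAs overlapped. The log2 ratios were 0.15 and 0.039 in replicate 1 and 0.31 and 0.037 in replicate 2, larger on both Cy5 arrays. Their mean was 0.13 ± 0.056 (SD, n = 2), with a 95% interval of 0.0092 to 0.26 and an adjusted p of 0.749 in limma. Without the Cy5 array of replicate 2 the ratio of Notch3 was 0.092.

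Notch1, the main Notch receptor of the epidermis, had log2 intensities in 15p RNA of 10.39 and 10.29 in replicate 1 and 9.67 and 9.96 in replicate 2. In 0p RNA they were 10.42 and 10.23, and 9.77 and 10.00. Its signal thus differed more between the replicates than between the RNAs. The log2 ratios were -0.031 and 0.064 in replicate 1 and -0.097 and -0.043 in replicate 2, on either side of 0 between the replicates. The mean was -0.027 ± 0.061 (SD, n = 2; 95% interval -0.15 to 0.097), and -0.010 without the Cy5 array of replicate 2. Its second probe gave ratios of 0.0081, 0.086, 0.022 and -0.12 in the same order and a mean of -0.00096.

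Notch2 had a mean log2 ratio of -0.024 ± 0.038 (SD, n = 2; 95% interval -0.15 to 0.098), and 0.025 without the Cy5 array of replicate 2. Its ratios were 0.050 and -0.044 in replicate 1, then -0.14 and 0.041 for replicate 2, with signs that opposed within each dye-swapped pair and between the pairs. The second, dim probe of Notch2 had the opposite sign to the first on all 4 arrays and a mean of 0.022 ± 0.019 (SD, n = 2). These differences between the probes (up to 0.22 on an array) were not unusual: 44.3% of 3023 genes with 2 kept probes had a larger one on that array.

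The ligands had small positive means. Jag1, which marks differentiating epidermis and is a known Wnt target in the follicle, had log2 intensities of 12.74 to 12.82 in 15p and 12.62 to 12.76 in 0p RNA. Its ratios were 0.15 and -0.019 in replicate 1, then 0.099 and 0.010 for replicate 2, with a mean of 0.060 ± 0.0076 (SD, n = 2; 95% interval -0.060 to 0.18). Jag2, another Jagged ligand, had 11.28 to 11.46 in 15p and 11.31 to 11.39 in 0p RNA and the closest dye-averaged ratios in the replicates, 0.011 and 0.014. The ratios split by dye: the Cy5 arrays of replicates 1 and 2 gave 0.098 and 0.068, and the Cy3 arrays gave -0.076 and -0.041. The mean was 0.012 ± 0.0022 (SD, n = 2; 95% interval -0.11 to 0.13).

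Dll1, the Delta-like ligand that is known from clusters of human epidermal stem cells, had a probe printed in 10 spots per array, which gives the spread within an array. For replicate 1 the mean ratio over the spots was 0.0036 ± 0.041 and 0.095 ± 0.055, and for replicate 2 it was 0.049 ± 0.046 and 0.021 ± 0.030 (SD over 10 spots of 1 array). Spots of 1 array ran from -0.064 to 0.072 on the Cy5 array of replicate 1, with a median of 0.0024, and 5 of them were negative. On its dye swap they ran from 0.012 to 0.19 with a median of 0.10, and all 10 were positive. In replicate 2 the medians were 0.052 (range -0.019 to 0.13, 9 spots positive) and 0.029 (range -0.020 to 0.077, 7 positive). The spot SD was near that of the other probes printed in this way: over 245 such probes that passed the filter its median was 0.030 to 0.044, depending on the array. The dye-averaged mean of Dll1 was 0.042 ± 0.010 (SD, n = 2; 95% interval -0.078 to 0.16). A member with 1 spot has no such check, and a ratio of 0.05 on 1 array is within the spread of the Dll1 spots.

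**Figure D3:**
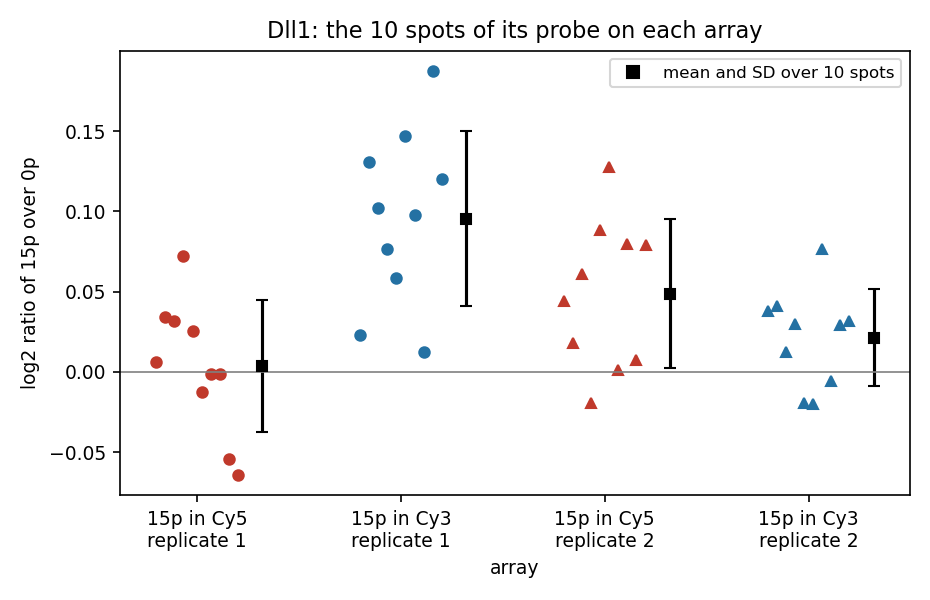
Log2 ratio of 15p over 0p (y axis) at each of the 10 spots of the Dll1 probe on each array (x axis), with the mean and SD over spots in black. Spots lie on both sides of 0 on 3 arrays and are all positive on the Cy3 array of replicate 1.

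Rbpj, the nuclear partner of all Notch receptors, had the lowest mean, and it came from 1 array. In 15p RNA the log2 intensity was 9.88 and 9.84 for replicate 1, then 9.45 and 10.00 for replicate 2, against 9.88, 9.86, 10.09 and 9.79 in 0p RNA. The log2 ratios were -0.0022 and -0.025 in replicate 1, -0.64 on the Cy5 array of replicate 2, and 0.21 on the matching Cy3 array. The mean was -0.11 ± 0.14 (SD, n = 2; 95% interval -0.25 to 0.026; adjusted p = 0.752 in limma), and without the Cy5 array of replicate 2 it was 0.046. The second Rbpj probe, which reads an earlier part of the transcript, was positive on all 4 arrays (0.023 and 0.16, then 0.19 and 0.091), with a mean of 0.12 ± 0.034 (SD, n = 2). On the Cy5 array of replicate 2 the probes differed by 0.83, more than for all but 2.45% of the 3023 genes with 2 kept probes, and with the mean over both probes the ratio of Rbpj was 0.0019. The sign of the Rbpj mean therefore depended on the probe and on that 1 array, without which the first probe was positive too. The second probe was close to background (1.90 to 4.79 times the negative controls). The RefSeq table lists 3 pseudogenes of Rbpj (Rbpj-ps1, Rbpj-ps2 and Rbpj-ps3), and whether the probes also bind their transcripts was not tested.

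**Figure D4:**
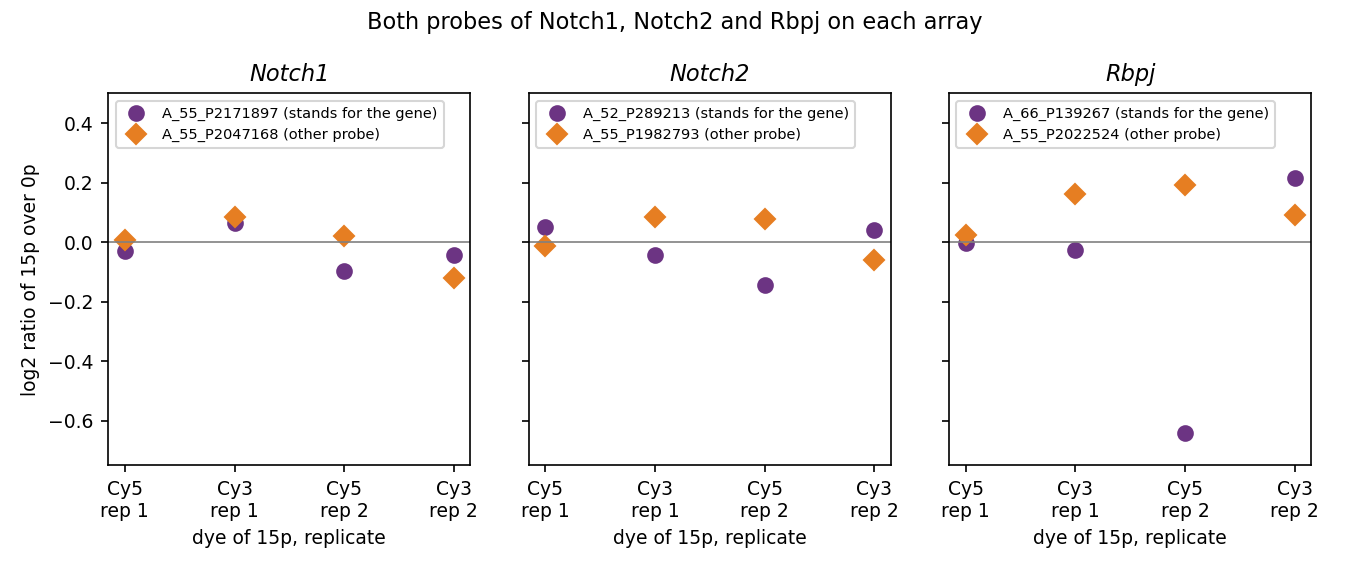
Log2 ratio of 15p over 0p (y axis) on each array (x axis, by the dye of 15p RNA and the replicate) for the probe that stands for the gene (circles) and the other probe (diamonds) of Notch1, Notch2 and Rbpj. The Rbpj probes stand 0.83 apart on the Cy5 array of replicate 2, while the Notch1 probes differ by at most 0.12.

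Among the targets, Hes1, the repressor that is the best known direct target of Notch, had log2 intensities in 15p RNA of 9.27 and 9.40 in replicate 1 and 9.38 and 9.14 in replicate 2. In 0p RNA they were 9.31 and 9.12, and 9.18 and 9.04. The 15p signal was the higher on 3 of 4 arrays, and the ranges overlapped. The log2 ratios were -0.035 and 0.28 in replicate 1 and 0.20 and 0.099 in replicate 2. The dye-averaged values were close in the replicates (0.12 and 0.15), while the arrays of replicate 1 differed by more than these values. The mean was 0.14 ± 0.019 (SD, n = 2; 95% interval 0.015 to 0.26; adjusted p = 0.749 in limma), which is a ratio of 1.10 on the linear scale. Without the Cy5 array of replicate 2 it was 0.077, and without the Cy3 array of replicate 1 0.090.

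Nrarp, a Notch-induced feedback inhibitor, had log2 intensities of 9.20, 9.01, 9.26 and 9.14 in 15p and 8.86, 9.18, 9.06 and 9.14 in 0p RNA, in the same order of arrays. Its ratio was 0.34 and 0.20 on the Cy5 arrays of replicates 1 and 2, and -0.17 and -0.0078 on the dye swaps. The dye-averaged ratios were 0.087 and 0.095, with a mean of 0.091 ± 0.0059 (SD, n = 2; 95% interval -0.029 to 0.21). The SD is taken after the dye average and so does not hold the gap between a Cy5 array and its dye swap, which for Nrarp was wider than the mean in both replicates. Hey1, a second hairy-related repressor, had positive ratios on 3 arrays (0.080 and 0.075 in replicate 1 and 0.082 on the Cy3 array of replicate 2) and -0.24 on the Cy5 array of replicate 2. Its mean was -0.0016 ± 0.11 (SD, n = 2; 95% interval -0.13 to 0.13), and 0.079 without that array. The targets thus had means of 0.14, 0.091 and -0.0016, and none passed.

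The members differed in how steady their signs were over the arrays. The dye-averaged ratio was positive in both replicates for 6 members (29.8% of all tested genes), negative in both for 1 (27.2%) and of opposite sign for 3 (43%). It was positive on all 4 arrays for Notch3 and Dll1 (3.67% of tested genes) and negative on all 4 for none (0 of 10; 3.11%). These are counts over 10 genes and no test was made of them. The sign followed the dye on both pairs for Jag2 and Nrarp, positive with 15p in Cy5 (18.1% of tested genes), and for 0 members the other way (14.1%; 32.3% in either way). With each array centred on its median in place of loess, 8 of 10 members followed the dye, as did 74.1% of all tested genes, so the counts depend on how the dyes were normalised. Of the 10 members, 5 had their largest absolute ratio on the Cy5 array of replicate 2, as had 56.8% of all tested genes.

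Calls among the members appeared under 1 setting. Without the Cy5 array of replicate 1, limma with a dye term called Notch3 (0.17, adjusted p = 0.041), Hes1 (0.19, adjusted p = 0.0195) and Rbpj (-0.27, adjusted p = 0.000436), beside 1535 genes higher and 1585 lower in all. Over the other fits with a test, adjusted p of Notch3 and Hes1 ran from 0.612 to 1. In the fit with calls the estimate of the prior degrees of freedom was infinite. It was infinite also with the replicate as a block and without the Cy5 array of replicate 2. In the fit with calls the remaining Cy5 array adds nothing to the spread and is assumed to vary like the Cy3 arrays. The array on which Rbpj had -0.64 therefore has no check there. Without the Cy5 array of replicate 2 the same fit called 42 genes higher and 46 lower, none of them a member. Over all settings with a value, the mean ratio of Notch3 stayed between 0.092 and 0.17 and that of Hes1 between 0.077 and 0.19.

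Beyond the 10 members, 68 other genes of the pathway were listed by role, and 60 of 67 found on the array were tested. None was called (0 higher and 0 lower, limma over all genes). At an unadjusted p under 0.05 (limma) there were 6 of the 60, beside 6.31% of all tested genes. Ratios were positive for 31 and negative for 29, with a median of 0.0069 beside 0.0025 over all tested genes. Signs counted by role, here and in the next paragraph, have no share over all genes beside them and were not tested. Of the remaining receptors and ligands, Notch4, Dll3, Dll4 and Dlk2 were tested, with ratios of -0.057 (Dll3) to 0.057 (Dlk2), or -0.087 and 0.030 without the Cy5 array of replicate 2, and Dlk1, a non-canonical ligand, was well above background on 1 array, in 0p RNA only. Of 9 tested genes of receptor cleavage (Adam10, Adam17, Furin and gamma-secretase subunits such as Ncstn) 7 had positive ratios, within -0.022 to 0.075. Of 5 tested glycosylation genes, Lfng, a Fringe enzyme that tunes which ligands a receptor answers to, had 0.13 ± 0.10 (SD, n = 2) and the others -0.096 to -0.0095. On the Cy5 and Cy3 arrays Lfng had 0.20 and -0.077 in replicate 1, then 0.73 and -0.32 for replicate 2, and without the array at 0.73 its ratio was -0.0017. Of 12 tested trafficking and turnover genes 10 were positive. Numbl, a relative of the Notch inhibitor Numb, had 0.14 ± 0.076 and did not pass. Its ratio was 0.36 on the Cy5 array of replicate 2 and 0.097 without that array. Dtx1 was not well above background. Of 20 nuclear cofactors 8 were positive and 12 negative, with Hdac2, a deacetylase of corepressor complexes, at -0.15 ± 0.14, which did not pass either. Hdac2 had -0.40 on the Cy5 array of replicate 2 and -0.090 without it.

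Few other hairy-related targets could be measured. On none of the 4 arrays were Hes3, Hes5, Hey2 and Heyl well above background, and Hes2, Hes6 and Hes7 had ratios of -0.022 to 0.010, with Hes2 well above background on 2 arrays in 15p and 4 in 0p RNA. Of the keratinocyte genes that act downstream of Notch, Krt1, a keratin of the spinous layer, was not above background, and 6 of 7 tested genes had negative ratios with a median of -0.026. Krt10 and Ivl, further differentiation genes, had -0.017 ± 0.013 and -0.025 ± 0.0033, and Ivl 0.00040 without the Cy5 array of replicate 2. Cdkn1a, a cell cycle inhibitor, had 0.15 ± 0.18, from 0.62 on that array and between -0.070 and 0.060 on the others, and -0.0077 without it. The lowest ratio was that of Sox9 (-0.38 ± 0.60), which had -1.56 on the Cy5 array of replicate 2 and between -0.059 and 0.14 on the other arrays, and 0.040 without that array. None of these genes passed (adjusted p = 0.749 or more, limma).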

How the data were processed

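RNA of 15p and 0p cells was measured on 4 two-colour Agilent arrays. Mean spot intensity and local background intensity were deposited by the authors as scanner output of Agilent Feature Extraction 10.7.3.1, per the file headers. Those files also hold deposited log10 ratios of Cy5 over Cy3, from processed intensities background-subtracted, detrended and dye-normalised, per the file headers. The authors' value table holds these log10 ratios with Cy5 over Cy3 on all arrays (largest difference from the scanner files 0.0045; median 0 in each column). The direction of each ratio follows the dyes in the labels.

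Intensities were corrected with normexp (offset 50) and normalised by loess in limma 3.58.1 (R 4.3.3), with control spots at weight 0. Control and irregular spots (154 to 286 of 43020 an array) were left out, none of them at a member, and spots of a probe were averaged. Symbols came from the RefSeq table (GRCm38.p6) by accession for 26055 of 39429 probes and otherwise from the files. Probes well above background on all 4 arrays in 1 RNA were kept (21677), and the brightest stood for its gene (17376 genes). Ratios were turned to 15p over 0p, averaged over each dye-swapped pair, and tested against 0 with lmFit and eBayes (prior degrees of freedom 8.88, residual 1), two-sided. Levels are log2 intensities after a further Aquantile step, which leaves ratios unchanged. Scripts were tested on simulated data.

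The labels pair the arrays, since each dye swap holds the RNAs of its numbered replicate. Deviations of same-numbered arrays from the mean of their dye orientation had a correlation of -0.26 across genes. The arrays of a replicate shared 1 slide and no other array was on it. Slide therefore cannot be told apart from replicate, and replicate values are also values within a slide. The members, lists and tests were chosen with earlier results of these data known. The rule for named genes takes the 10 members with all probes and, where no wider pathway gene was called, the 4 with the largest absolute ratio (Sox9, Hdac2, Cdkn1a and Numbl) and those not above background. Lfng, Krt14, Krt15, Krt10, Ivl, Dll3 and Dlk2 were named after their values were seen. Aph1c had no probe under that symbol.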

Additional observations from a re-analysis of the deposited data

Results flagged for a closer look

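For Hey1, the log2 ratio of -0.24 on the Cy5 array of replicate 2 stood far from the other 3 arrays, with a gap of 0.978 of the whole range, past Dixon's 95% critical value for 4 values. Where all 4 values have the same spread, chance alone passes that value in about 5% of such groups, and 10 genes were examined. The Cy5 array of replicate 2 had a wider spread over all genes (SD 0.29 against 0.13 to 0.14), so the 5% does not hold for it. For Jag2 and Nrarp the ratio was positive on both Cy5 arrays and negative on both Cy3 arrays. The mean with 15p in Cy5 exceeded that with 15p in Cy3 by 0.14 for Jag2 and by 0.36 for Nrarp, a difference that was not tested.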

How the results depend on the processing

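The count of 0 called members was kept in each alternative but that without the Cy5 array of replicate 1. Signs of Notch3, Jag1, Jag2, Dll1, Hes1 and Nrarp held in each, though not their size. With the replicate as a block, 7 genes were called higher and 53 lower, none a member. The crossed pairing, added after the data were seen, is the same fit by construction. Without the filter on dim probes 1 gene was called lower. Median centring moved the member median to 0.052 and the count that followed the dye to 8, and a normexp offset of 16 moved that count to 1 and Hey1 to 0.00091. With the mean over probes Rbpj was 0.0019. The cause was not tested. Leaving out 1 array or replicate gave 0 to 1535 genes higher, 0 to 1585 lower, 0 to 3 members called and a member median of 0.023 to 0.060. Ranges then were -0.070 to 0.016 for Notch1, -0.072 to 0.025 for Notch2, 0.0034 to 0.021 for Jag2 (lowest without the Cy3 array of replicate 2), 0.024 to 0.061 for Dll1 (lowest without the Cy3 array of replicate 1), -0.082 to 0.079 for Hey1, -0.27 to 0.046 for Rbpj and 0.051 to 0.13 for Nrarp (0.056 without the Cy5 array of replicate 1 and 0.051 without the Cy3 array of replicate 2). Without the Cy5 array of replicate 2, chosen for these genes after the data were seen, Sox9 had 0.040, Cdkn1a -0.0077, Lfng -0.0017 and Ivl 0.00040, each of opposite sign to its mean. Without a whole replicate there is no test, since 1 value remains. The number of arrays limits the precision, and second probes near background limit the check on Notch1, Notch2 and Rbpj.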

Other observations

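Signals of some probes differed between the replicates in both RNAs alike, where slide and replicate cannot be told apart. The Notch1 probe A_55_P2171897 was lower in replicate 2 by a log2 difference of -0.52 in 15p RNA and -0.44 in 0p RNA. Only 2.45% of tested genes had a larger mean shift than its -0.48, beside a median absolute shift of 0.097. The other Notch1 probe shifted the opposite way, by 0.20. The second Rbpj probe was higher in replicate 2 by 0.48 in 15p and 0.43 in 0p RNA, while the first shifted by -0.033 on average. Both Notch2 probes were lower in replicate 2, by -0.20 and -0.19.

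The protein encoded by Rbpj is known to bind DNA at sites with the letters TGGGAA, often preceded by a G. RefSeq promoter windows (GRCm38.p6, 250 bases before to 50 after the start) were matched by symbol for 8 members, and those of Hes1 and Hey1 were not analysed here. TGGGAA or its reverse complement TTCCCA was found in windows of 1 of the 8 genes, Rbpj, and in 25.6% of all 32851 windows. GTGGGAA or TTCCCAC was found in 0 of 8 genes and in 6.38% of all windows. A gene can have several windows, as Rbpj has, so counts of genes and shares of windows are not in the same unit. The 30 bases around each match at Rbpj are shown with the match in capitals, as a description only.
Rbpj, chr5:53590185-53590214, plus strand: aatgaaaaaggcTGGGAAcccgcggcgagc
Rbpj, chr5:53590269-53590298, plus strand: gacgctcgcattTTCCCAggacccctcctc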
